A study of Homo sapiens with 4 samples.

Results

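Described here are genes of cholesterol synthesis, of cholesterol handling and of SREBP control, as measured in HCT116 cells made to overexpress PRSS8. The members were 30 genes listed by name, and a gene was taken from the array table through a probe set whose platform annotation gave exactly 1 symbol. Of the 30, 28 were measured, among 22411 genes in all, each by a single such probe set. FDFT1, the squalene synthase gene, had no matching probe set and is not analysed here. NPC2, a lysosomal cholesterol carrier, was left out because its probe set also carries the symbol of a microRNA gene.

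The PRSS8 group was HCT116, an established human colon cancer cell line, transiently transfected with a plasmid that expresses PRSS8, and the control group was the same line with the vector. PRSS8 encodes prostasin, a serine protease of epithelial cell surfaces. There were 2 arrays in each group, and the labels number them 1 and 2 and call them biological replicates. Transfection was transient, and neither the share of cells that took up plasmid nor the time to collection is stated in the labels. RNA came from whole cultures, so a level that differs in every cell and one that differs in some cells cannot be told apart. Values are log2 expression levels, so a difference of 1 is a doubling.

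Some facts of the whole table bear on every value below. PRSS8 stood at 18.55 and 18.07 on the PRSS8 arrays, against 10.45 and 11.18 on the control arrays, as the labels say. Arrays of one number lay closer to each other across genes than arrays of one group did. Pearson's r was 0.996 between both arrays of number 1 and 0.989 between those of number 2, but 0.934 between the PRSS8 arrays and 0.930 between the control arrays. Differences are therefore given as PRSS8 minus control within number 1 and within number 2, beside the mean of both, and PRSS8 1, PRSS8 2, control 1 and control 2 name the arrays. Of the epithelial markers, EPCAM, KRT8, KRT18, KRT19 and CDH1 had levels from 7.95 to 15.05 over the 4 arrays, and VIL1 from 3.41 to 3.89. Markers of fibroblasts (COL1A1, COL1A2 and DCN) and endothelium (PECAM1 and CDH5), and the leukocyte markers PTPRC and CD3E, lay between 3.12 and 5.13. CD68, a lysosomal protein used as a macrophage marker, stood at 8.47 and 9.44 on the PRSS8 arrays and at 7.23 and 8.11 on the control arrays.

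Cells build cholesterol from acetyl-CoA through mevalonate, farnesyl diphosphate, squalene and lanosterol. The genes of these enzymes share a switch: the membrane-bound transcription factors SREBP1 and SREBP2 are carried by SCAP from the endoplasmic reticulum (ER) to the Golgi, where proteolysis frees the active part. When ER sterol is high, INSIG proteins hold SCAP back and the genes fall quiet. SREBPs bind the sterol regulatory element, usually together with NF-Y, which binds the CCAAT box.

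Promoters of 3 members are shown. HMGCS1 and MSMO1 had the largest mean differences among the members, and their windows hold CCAAT boxes but no match to the sterol element. SREBF2 alone held a match to the whole sterol element. These 3 were picked after the values were seen, since 0 members met the rule first written down. That rule asked for the whole sterol element in a gene higher within both numbers. Each window runs from 250 bases before to 50 bases after a RefSeq transcript start (GRCh38.p14), printed 5′ to 3′ on the gene's strand. Capitals mark the motifs, searched on both strands: TCACNCCAC for the sterol element and CCAAT for the CCAAT box, which reads ATTGG on the opposite strand. The windows are chr5:43313363-43313662, minus strand, for HMGCS1, chr4:165327419-165327718, plus strand, for MSMO1, and chr22:41832855-41833154, plus strand, for SREBF2.
HMGCS1: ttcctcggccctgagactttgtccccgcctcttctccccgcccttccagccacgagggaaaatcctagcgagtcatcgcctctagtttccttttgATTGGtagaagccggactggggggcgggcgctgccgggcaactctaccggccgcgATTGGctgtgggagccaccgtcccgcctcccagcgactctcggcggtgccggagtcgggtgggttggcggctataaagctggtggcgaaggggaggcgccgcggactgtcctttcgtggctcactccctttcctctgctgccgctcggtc
MSMO1: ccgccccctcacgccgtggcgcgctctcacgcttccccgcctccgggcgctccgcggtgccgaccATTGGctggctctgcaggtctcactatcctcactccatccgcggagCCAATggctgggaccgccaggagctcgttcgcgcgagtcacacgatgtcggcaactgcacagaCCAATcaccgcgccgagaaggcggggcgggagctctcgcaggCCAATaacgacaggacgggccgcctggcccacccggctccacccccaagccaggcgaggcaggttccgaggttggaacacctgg
SREBF2: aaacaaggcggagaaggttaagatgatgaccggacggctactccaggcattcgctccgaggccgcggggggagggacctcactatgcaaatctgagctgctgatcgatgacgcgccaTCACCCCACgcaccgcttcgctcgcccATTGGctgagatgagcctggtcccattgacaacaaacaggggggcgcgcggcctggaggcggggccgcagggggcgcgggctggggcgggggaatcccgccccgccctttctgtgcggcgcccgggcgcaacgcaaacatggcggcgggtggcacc

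The HMGCS1 window shown holds 2 CCAAT boxes, which begin 155 and 100 bases before the start, while the window of its second RefSeq start holds 0. The MSMO1 window holds 4, the nearest 34 bases before the start. In SREBF2 the sterol element begins 133 bases before the start and a CCAAT box 106 bases before it. RefSeq windows were matched for 27 of the 30 listed genes, some with more than 1 start. A CCAAT box was present in at least 1 window of 19 of the 27, against 39.7% of all 27305 genes with a window, coding or not. The whole sterol element was found in 1 of the 27, against 1.39% of all genes. Its core, CACNCCAC, which lies inside the longer motif and was searched after the first result, was found in 5 of the 27 (INSIG1, ABCA1, IDI1, SC5D and SREBF2), against 7.05% of all genes. A match is a stretch of letters and not a measured binding event, and a window without one says nothing about binding.

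**Figure D1:**
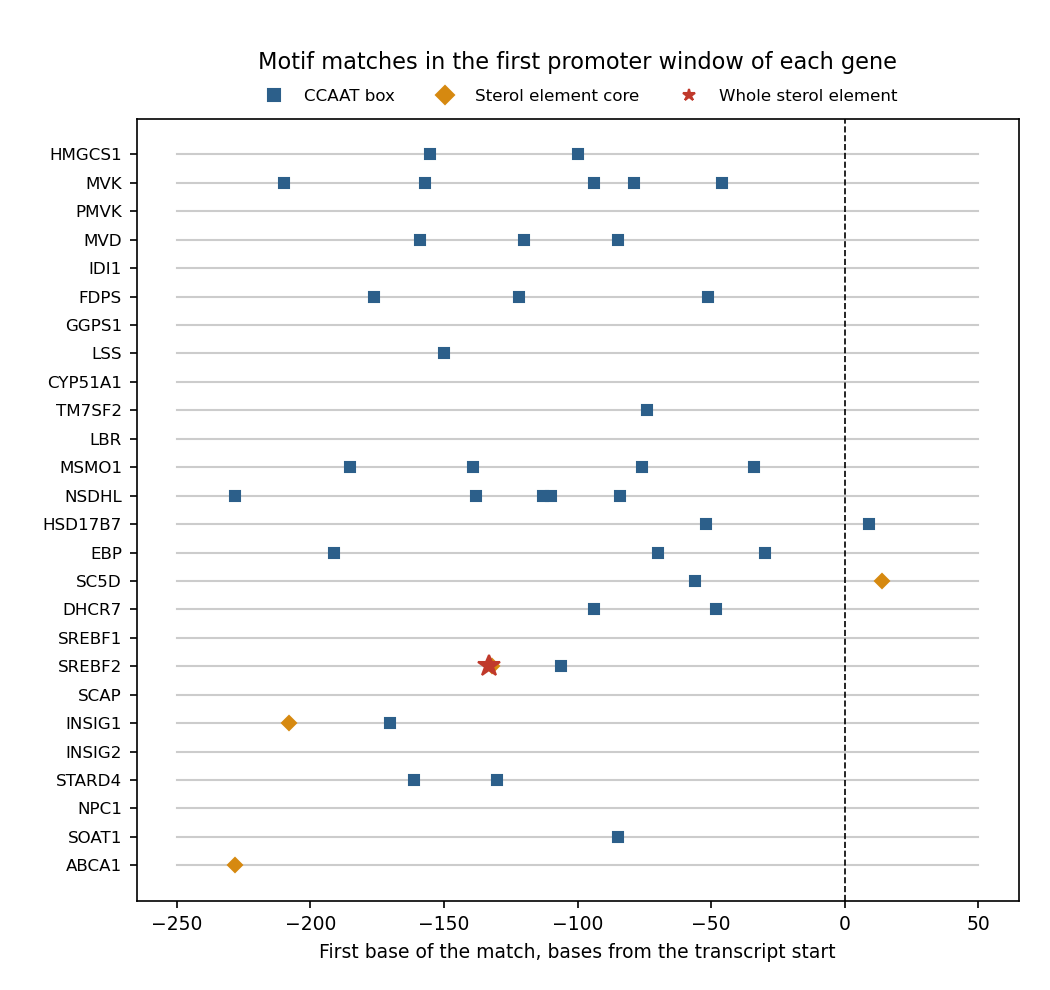
Motif matches in the first RefSeq promoter window of the 26 measured members that have one. Each grey line is a window, the x axis gives bases from the transcript start (dashed line), squares are CCAAT boxes, diamonds the core of the sterol element and the star the whole element. In these windows 16 genes hold a CCAAT box and 4 the core, and SREBF2 alone has the star.

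Within number 2, 21 of 28 members were higher on the PRSS8 array. So were 11651 of all 22411 genes and 7439 of the 11206 genes at or above the median level. Within number 1, 14 of 28 members were higher, beside 11100 of all genes and 4960 of those at or above the median level. The median difference of the members was 0.11, against 0.00 over all genes and 0.04 over genes at or above the median level. After quantile normalization the members had 0.04, against 0.02 over all genes. As deposited it was −0.01 within number 1 and 0.20 within number 2, where all genes had medians of −0.00 and 0.01 and genes at or above the median level −0.03 and 0.10. The median was −0.19 without control 2 and 0.38 without control 1, fits that mix the groups with the replicate number. Within both numbers 12 of the 28 members were higher and 5 lower, and the other 11 were mixed. Among all genes 26.0% were higher within both numbers and 24.5% lower, and among genes at or above the median level 31.6% and 21.0%. In 23 of 28 members the difference was larger within number 2, against 53.1% of all genes and 68.3% of those at or above the median level.

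Larger steps were also mostly within number 2. At least 1.5-fold higher within number 2 were 7 members (HMGCS1, MSMO1, MVD, NPC1, DHCR7, NSDHL and CYP51A1), against 5.7% of all genes and 10.5% of genes at or above the median level. After quantile normalization and after cyclic loess 4 members were, against 4.29% and 4.32% of all genes. After median centring 8 were, against 7.22% of all genes. As deposited, no member was that much lower within number 2, against 2.25% of genes. Within number 1, only HMGCS1 and STARD4 were at least 1.5-fold higher (1.05% of genes), and TM7SF2 and SOAT1 at least 1.5-fold lower (1.13% of genes). HMGCS1 is thus the only member at or above 1.5-fold within both numbers. The share of all genes that reach this within both numbers was not counted, so this has no background beside it.

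**Figure D2:**
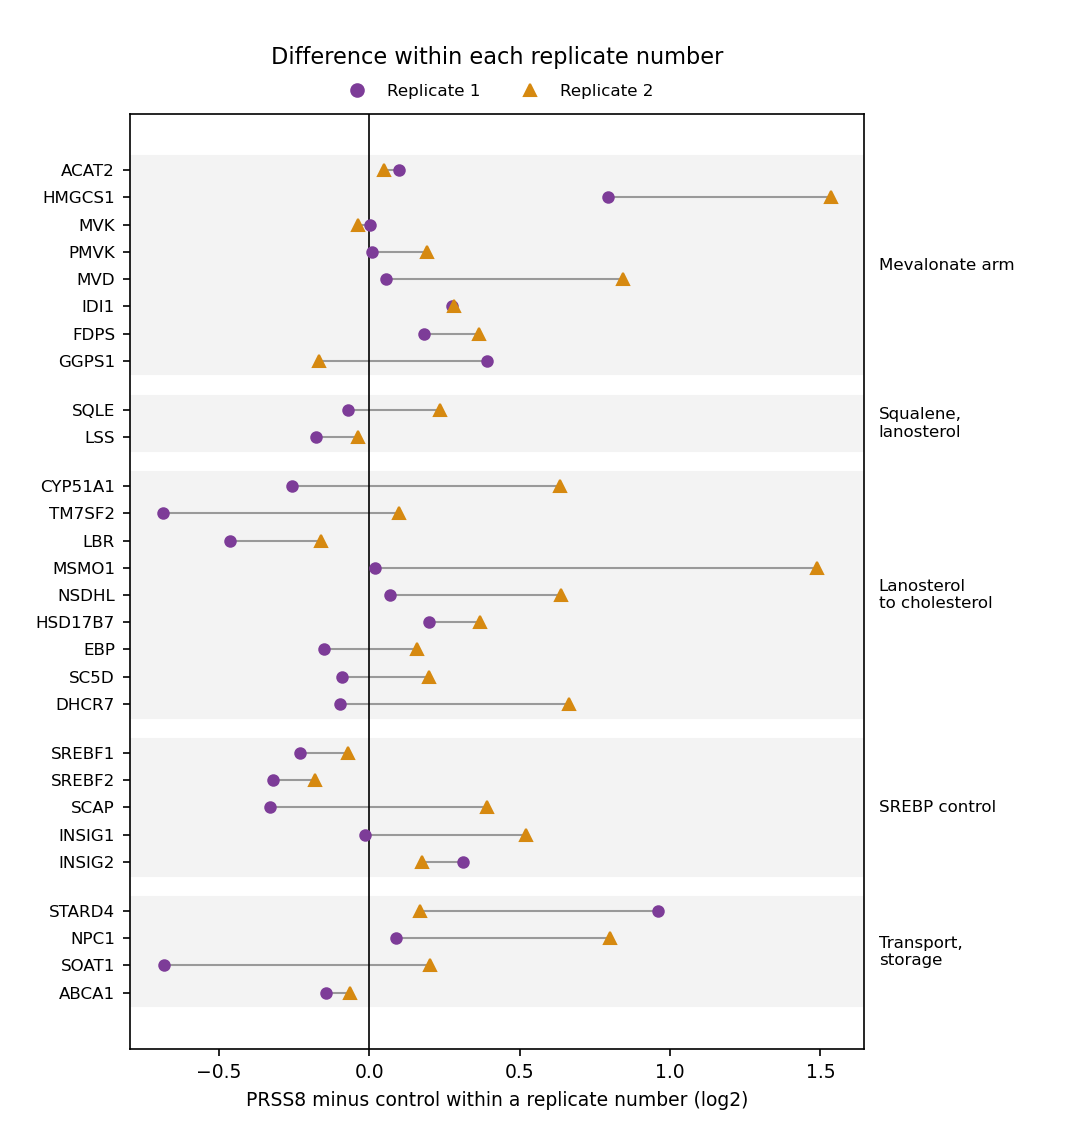
PRSS8 minus control on the log2 scale for each of the 28 members, by role, within number 1 (circles) and within number 2 (triangles), with a line joining both. HMGCS1 lies at 0.79 and 1.53, MSMO1 at 0.02 and 1.49, and in 23 of 28 members the triangle is to the right of the circle.

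Tested over all genes, no member passed. In limma with Benjamini-Hochberg adjustment, 0 of 28 members and 0 of 22411 genes (0.0%) had an adjusted p under 0.05. At an unadjusted p under 0.05 there were 0 members and 42 genes, and the smallest member p was 0.37, that of HMGCS1. The SEs and p-values come from a fit with no term for the replicate number, so they include the difference between the numbers. Without control 1, 62 genes passed, and without control 2, 8 genes, with 0 members in either. Every member had an adjusted p of 1.0 after rounding. With 2 arrays on each side, the smallest two-sided p an exact permutation test allows is 0.333. The labels call the replicates biological but do not say whether they came from separate cultures. The kind of spread that these p-values measure is therefore not known.

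The mevalonate arm, which turns acetyl-CoA into the building blocks of sterols and prenyl groups, was higher within both numbers for 6 of 8 genes and lower within both for 0. Its median difference was 0.14 within number 1 and 0.24 within number 2. HMGCS1, which makes HMG-CoA from acetyl-CoA and acetoacetyl-CoA, stood at 9.97 and 8.18 on the PRSS8 arrays and at 9.18 and 6.65 on the control arrays. Each PRSS8 array lay above the control array of its own number, while the groups overlapped, since control 1 was higher than PRSS8 2. The differences were 0.79 (1.73-fold) and 1.53 (2.90-fold), with a mean of 1.16 (SE 1.17).

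MVD, which decarboxylates mevalonate diphosphate to isopentenyl diphosphate, had 7.35 and 8.47 on the PRSS8 arrays and 7.29 and 7.62 on the control arrays. PRSS8 2 was the array that stood apart, and the difference was 0.06 within number 1 and 0.84 within number 2 (mean 0.45, SE 0.64). For IDI1, the isomerase of isopentenyl diphosphate, the levels were 6.43 and 5.37 on the PRSS8 arrays and 6.15 and 5.08 on the control arrays. The difference was 0.28 within each number, and the groups overlapped because both number 1 arrays lay above both number 2 arrays. FDPS, which makes farnesyl diphosphate, had 6.93 and 7.61 on the PRSS8 arrays and 6.75 and 7.25 on the control arrays, with differences of 0.18 and 0.36. FDPS has closely similar pseudogenes, so its signal is uncertain.

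Smaller differences were measured at the other steps of the arm. ACAT2, the cytosolic thiolase, differed by 0.10 within number 1 and 0.05 within number 2. After quantile normalization and cyclic loess ACAT2 took opposite signs in the 2 numbers. Of the kinases that act in turn from mevalonate to its diphosphate, MVK differed by 0.00 and −0.04, and PMVK by 0.01 and 0.19. MVK levels were low, at 4.37 and 4.61 on the PRSS8 arrays and 4.37 and 4.64 on the control arrays. Whether MVK was above background was not tested. GGPS1, which makes geranylgeranyl diphosphate for prenylation rather than for sterols, took opposite signs, at 0.39 and −0.17.

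At the entry to the sterol rings, neither measured gene was higher within both numbers. SQLE, the squalene epoxidase, stood at 9.82 and 8.50 on the PRSS8 arrays and at 9.89 and 8.26 on the control arrays, so its numbers lay further apart than its groups. LSS, which closes the ring to lanosterol, differed by −0.18 and −0.04.

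From lanosterol to cholesterol, 3 of 9 genes were higher within both numbers, 1 was lower and 5 were mixed. All 9 had the larger difference within number 2, where their median was 0.37, against −0.10 within number 1. MSMO1, the sterol methyl oxidase that starts removal of the methyl groups at carbon 4, stood at 9.82 and 9.21 on the PRSS8 arrays and at 9.80 and 7.72 on the control arrays. Control 2 was lowest and the other 3 arrays lay within 0.605 of each other, so the difference was 0.02 within number 1 and 1.49 (2.81-fold) within number 2 (mean 0.75, SE 0.97). NSDHL and HSD17B7 act in the same demethylation. NSDHL had 6.84 and 7.66 on the PRSS8 arrays and 6.77 and 7.02 on the control arrays, with differences of 0.07 and 0.64. HSD17B7 had 6.41 and 6.20 on the PRSS8 arrays and 6.21 and 5.83 on the control arrays, with differences of 0.20 and 0.37. Its groups overlapped only by the narrow gap between PRSS8 2 and control 1, and its signal is uncertain because a near-identical pseudogene exists.

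CYP51A1 and DHCR7 showed opposite signs in the 2 numbers. CYP51A1, the lanosterol demethylase, stood at 10.88 and 8.54 on the PRSS8 arrays and at 11.14 and 7.91 on the control arrays, with differences of −0.26 and 0.64. The gap between its control arrays, 3.23, was the widest among the members. DHCR7, the reductase that yields cholesterol itself, had 10.45 and 11.24 on the PRSS8 arrays and 10.55 and 10.58 on the control arrays. Its controls lay close together, and PRSS8 2 was the single array that stood apart, 0.66 above its control.

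LBR and TM7SF2 encode sterol reductases of the same step, and LBR is also a receptor for lamin B in the nuclear envelope. LBR had 8.21 and 6.49 on the PRSS8 arrays and 8.67 and 6.65 on the control arrays, and it was lower within both numbers, with differences of −0.46 and −0.16 (mean −0.31, SE 0.99). TM7SF2 had 6.14 and 7.07 on the PRSS8 arrays and 6.83 and 6.97 on the control arrays. PRSS8 1 was the low array there, with differences of −0.69 and 0.10. The isomerase EBP differed by −0.15 and 0.16, and the desaturase SC5D by −0.09 and 0.20.

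**Figure D3:**
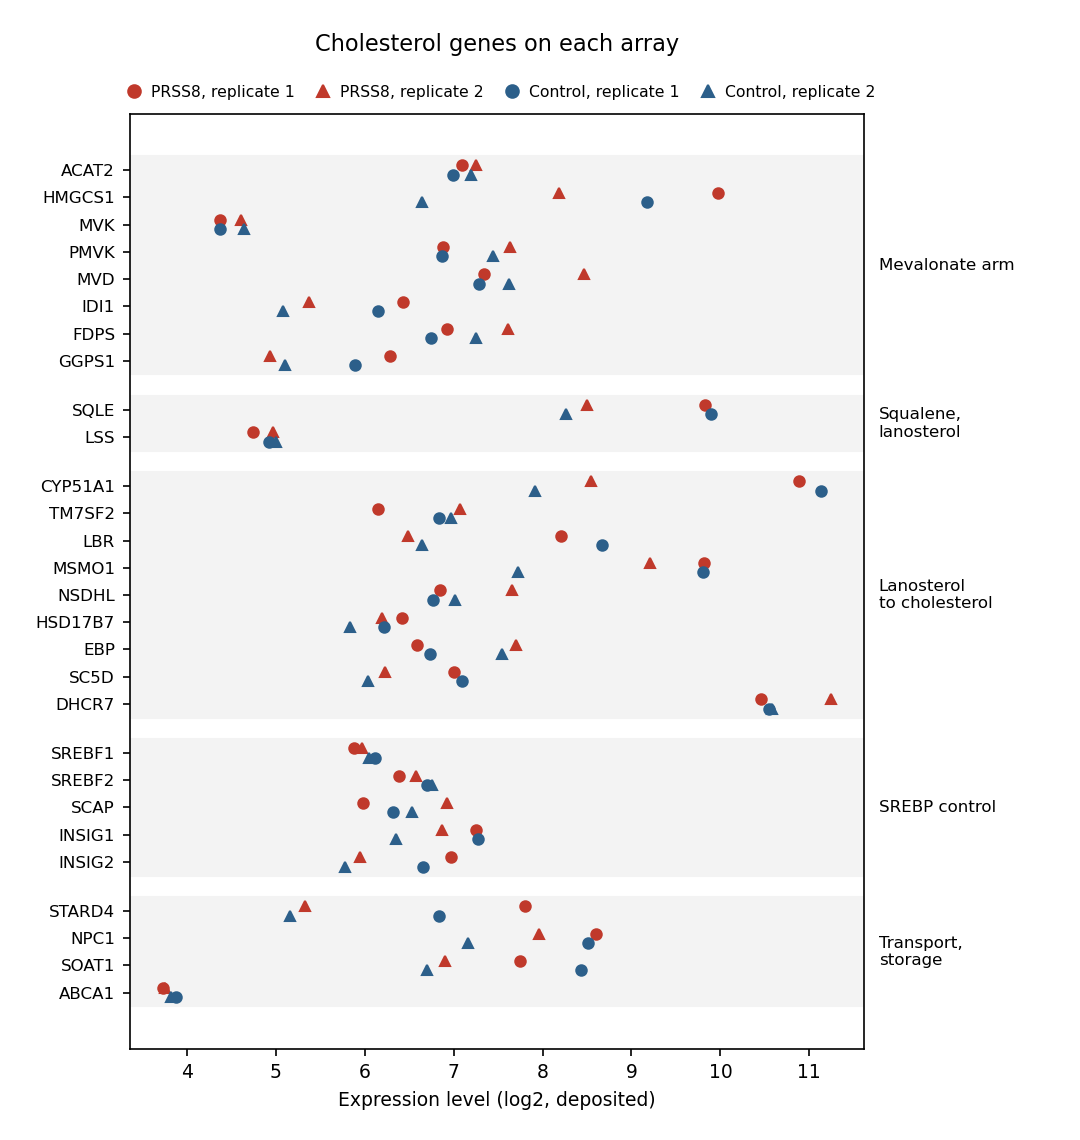
Level of each of the 28 members on each of the 4 arrays (log2, as deposited), by role, with PRSS8 arrays in red above control arrays in blue, circles for number 1 and triangles for number 2. Both circles lie to the right of both triangles for HMGCS1, IDI1, GGPS1, SQLE, CYP51A1, LBR, MSMO1, HSD17B7, SC5D, INSIG1, INSIG2, STARD4, NPC1 and SOAT1. They lie to the left of both triangles for ACAT2, MVK, PMVK, MVD, FDPS, LSS, TM7SF2, NSDHL, EBP, DHCR7 and SCAP. For SREBF1, SREBF2 and ABCA1 both red points lie to the left of both blue ones.

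Among the regulators, both SREBP genes were lower on the PRSS8 arrays, while the INSIG genes had means above control. SREBF2, whose product drives mainly cholesterol genes, stood at 6.38 and 6.58 on the PRSS8 arrays and at 6.70 and 6.76 on the control arrays. Both PRSS8 arrays lay below both controls, with differences of −0.32 and −0.18 (mean −0.25, SE 0.38), and it was lower within both numbers under all 3 further normalizations, although the groups overlapped after quantile normalization. SREBF1, whose product drives mainly fatty acid genes, stood at 5.88 and 5.97 on the PRSS8 arrays and at 6.11 and 6.04 on the control arrays. Those differences, −0.23 and −0.07 (mean −0.15, SE 0.30), also left the groups apart as deposited. The groups overlapped after quantile normalization and after median centring, which brought the difference within number 2 to −0.001. Both genes had an adjusted p of 1.0 in limma.

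INSIG1, an ER anchor of SCAP that is itself a target of SREBP, had 7.26 and 6.87 on the PRSS8 arrays and 7.27 and 6.35 on the control arrays. Control 2 was the low array, and the differences were −0.01 and 0.52, the first of which turned above 0 after quantile normalization and cyclic loess. The second anchor, INSIG2, had 6.97 and 5.95 on the PRSS8 arrays and 6.66 and 5.78 on the control arrays, with differences of 0.31 and 0.17. SCAP had 5.98 and 6.92 on the PRSS8 arrays and 6.31 and 6.53 on the control arrays. Its PRSS8 arrays lay on either side of both controls, so the mean difference was 0.03 (SE 0.47).

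Genes of transport, storage and efflux had no common direction, with 2 of 4 higher within both numbers and 1 lower. STARD4, a cytosolic sterol carrier, had 7.80 and 5.32 on the PRSS8 arrays and 6.84 and 5.15 on the control arrays. Its difference was the largest of all members within number 1, at 0.96 (1.94-fold), and 0.17 within number 2 (mean 0.56, SE 1.03). NPC1, which exports cholesterol from the lysosome, had 8.60 and 7.96 on the PRSS8 arrays and 8.51 and 7.17 on the control arrays. There control 2 stood lowest, and the differences were 0.09 and 0.80. SOAT1, which esterifies cholesterol for storage, had 7.75 and 6.90 on the PRSS8 arrays and 8.43 and 6.70 on the control arrays, with opposite signs of −0.68 and 0.20.

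ABCA1, the efflux pump that loads cholesterol onto apolipoprotein A-I, stood at 3.73 and 3.75 on the PRSS8 arrays and at 3.87 and 3.82 on the control arrays. The groups did not overlap, but the difference was small (mean −0.10, SE 0.13), and within number 2 it changed sign under cyclic loess and median centring. Detection could not be computed, so whether it was above background was not tested. Together with SREBF1 and SREBF2 it made 3 members with both PRSS8 arrays below both controls (5.56% of all genes), and 0 members had both above (5.53% of all genes). SREBF1 and ABCA1 lost that separation after quantile normalization and median centring, SREBF2 after quantile normalization, and ABCA1 also after cyclic loess.

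In 20 of 28 members the control arrays lay further apart than the group means did, against 84.1% of all genes. Control 1 exceeded control 2 by 2.53 for HMGCS1, 2.08 for MSMO1 and 2.03 for LBR, while for DHCR7, SREBF1, SREBF2 and ABCA1 the controls lay within 0.068 of each other.

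**Figure D4:**
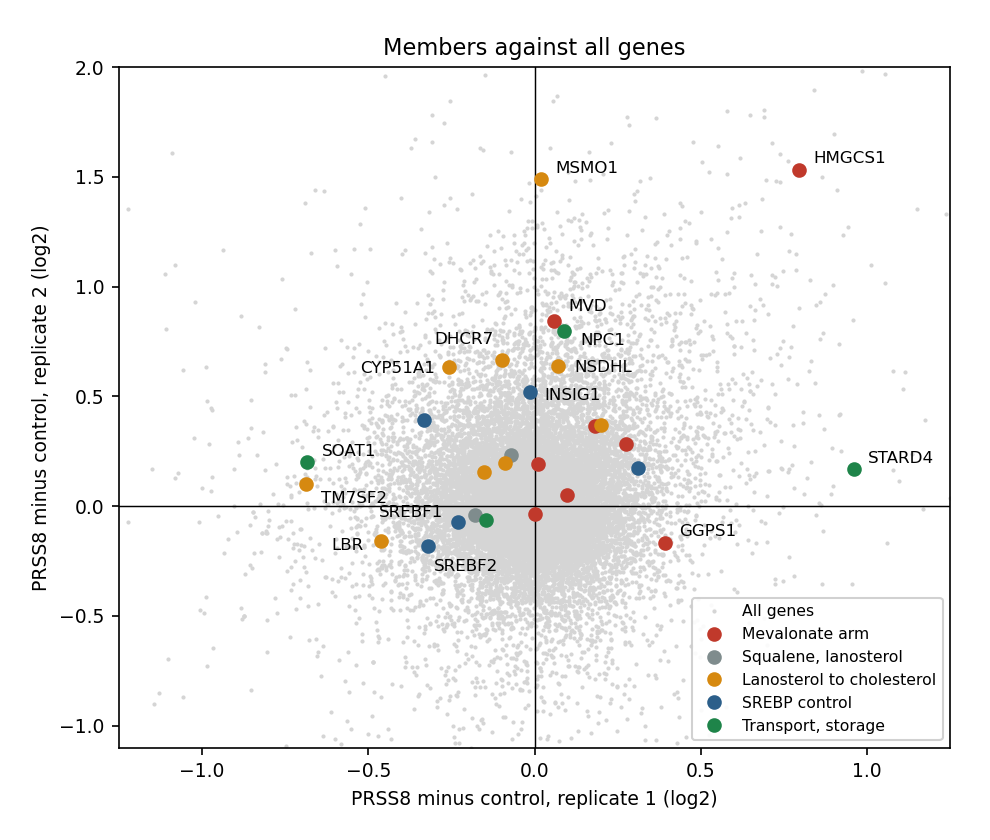
Difference within number 2 (y axis) against difference within number 1 (x axis), PRSS8 minus control on the log2 scale, for the 28 members (coloured by role) and all genes (grey). Of the 22411 genes 157 lie outside the axes. HMGCS1 stands at the upper right, STARD4 at the right and MSMO1 near the vertical axis, and LBR, SREBF1 and SREBF2 lie at the lower left of both zero lines.

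Neighbouring pathways were described in the same way. Of the SREBP-driven fatty acid genes, 9 of 10 were measured, 3 higher within both numbers and 2 lower, and 0 passed the test. FASN, the fatty acid synthase, had 9.29 and 9.30 on the PRSS8 arrays and 9.75 and 9.58 on the control arrays, with both PRSS8 arrays below both controls (5.56% of all genes). LPIN1, a phosphatidate phosphatase, had 5.11 and 5.12 on the PRSS8 arrays and 5.09 and 5.02 on the control arrays, with both PRSS8 arrays above both controls (5.53% of all genes). ACSS2, the acetyl-CoA synthetase, differed by 0.07 and 0.63, and ELOVL6, a fatty acid elongase, by 0.13 and 0.35. Genes of users of isoprenoids, which take farnesyl or geranylgeranyl groups from the mevalonate arm, were measured for 7 of 9, 5 of them higher within both numbers and 0 lower. FNTA, a prenyltransferase subunit, differed by 0.24 and 0.85, PGGT1B, a subunit of a related prenylating enzyme, by 0.02 and 0.55, and COQ2, of ubiquinone synthesis, by 0.06 and 0.38.

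In the list of sterol sensing and SREBP cleavage 8 of 10 genes were measured, 3 higher within both numbers and 1 lower. AUP1, a lipid droplet and ER degradation factor, differed by 0.03 and 0.82, RNF139, an ER ubiquitin ligase, by 0.23 and 0.38, and FAF2, of ER-associated degradation, by 0.07 and 0.45. MBTPS1 and MBTPS2, the proteases that cleave SREBPs in the Golgi, took opposite signs, at −0.53 and 0.22 for MBTPS1 and −0.37 and 0.72 for MBTPS2. In the list of LXR, uptake and lysosomal partners 9 of 12 were measured, 2 higher within both numbers and 0 lower. These 2 were OSBP, a sterol carrier between ER and Golgi, at 0.63 and 0.47, and NCEH1, a cholesteryl ester hydrolase, at 0.22 and 0.37. SCARB1, a lipoprotein receptor, differed by −0.33 and 0.02. None of these lists had a member past the threshold in limma, where 0.0% of all genes passed.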

How the data were processed

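The authors deposited RMA values on the log2 scale, 1 per probe set, made in Affymetrix Expression Console 1.3.1, per the submitters' processing notes. Neither the labels nor the notes say if all 4 arrays went through RMA as one set, and the columns differ in distribution. Of 70523 probe sets, 2995 control and exon-level ones were left out. Symbols came from GEO's platform annotation (23781 probe sets with 1 symbol, 1543 with several). They were updated through Entrez gene identifiers, or through older symbols, against the RefSeq gene list. The brightest probe set stood for each of 22411 genes. No coordinates of probe sets are given because the array's build is not named.

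PRSS8 and control were compared with limma 3.58.1 in R 4.3.3 (lmFit, eBayes with an intensity trend, Benjamini-Hochberg over all genes, two-sided, threshold 0.05), with no block for the replicate number. The code was tested on simulated data. The number of arrays limits the precision. SE is limma's moderated standard error.

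The members and lists were chosen with earlier results of these data known. All measured members are named. Values on each array are given for the SREBP control genes, for members whose groups do not overlap and for the 8 largest mean differences, and some others were added after their values were seen. In each neighbouring list the rule was to name the 3 largest mean differences. MBTPS1, MBTPS2 and LPIN1 were added after their values were seen. Promoter windows are RefSeq's (GRCh38.p14). Further genes of the pathway are not analysed here. The alternatives were limma without the intensity trend, 3 normalizations (quantile, median centring, cyclic loess), a replicate block, a filter on dim genes, averaging the probe sets of a gene, testing each gene-level probe set alone and leaving out each array.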

Additional observations from a re-analysis of the deposited data

How the results depend on the processing

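No member passed the threshold under any alternative run, and no gene did except without control replicate 1 (62 genes) or control replicate 2 (8 genes), where leaving out a PRSS8 array gave 0. The labels state no pairing by replicate number. Across genes, the difference between the PRSS8 arrays correlated with that between the control arrays at r = 0.91, and the replicate block called 0 genes and 0 members, with 1 member, HMGCS1, at an unadjusted p under 0.05 (limma, p = 0.0072, adjusted p = 0.94). The median difference of the members was 0.04 to 0.14 over the 3 normalizations, where that of all genes was 0.01 to 0.03, and −0.19 to 0.38 with an array left out. Leaving out an array also mixes the groups with the replicate numbers. With an array left out, 6 to 12 members had the PRSS8 side wholly above control and 5 to 9 wholly below, against 18.7% to 35.7% and 16.1% to 38.0% of all genes. Members lower within both numbers were 8 after quantile normalization and 3 after median centring (22.0% and 17.5% of all genes). With groups apart upward there was 1 after quantile normalization and 1 after cyclic loess (HSD17B7 in both) and 2 after median centring (MVD and NSDHL), against 8.88% to 9.63% of all genes. With groups apart downward there were 0 after quantile normalization and 1, SREBF2, after median centring (6.84% and 5.36% of all genes). After cyclic loess there were 3, LSS, SREBF1 and SREBF2 (7.47% of all genes). Counts of 1.5-fold differences under other normalizations were added after seeing the data. That much higher within number 2 were 4 members after quantile normalization and 4 after cyclic loess (4.29% and 4.32% of all genes). After median centring there were 8 (7.22% of all genes). The sign of the mean difference turned for 4 of 28 members after quantile normalization, 1 after median centring and 1 after cyclic loess, and for 6 to 12 with an array left out.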
